A study of Rattus norvegicus with 4 samples.

Results

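The genes described here encode the subunits of voltage-gated sodium channels, voltage-gated calcium channels and the hyperpolarization-activated HCN channels, measured in the rat hypothalamus. Members were chosen by name, with earlier results of these data known. They are every probe of the normalized table whose symbol starts with Scn and a digit, Cacna, Cacnb, Cacng, or Hcn and a digit. This gave 39 probes for 39 genes, out of 22523 probes and 21392 genes in all. The study asked how hypothalamic gene expression differs in the adult male offspring of undernourished pregnancies when they are fed a high-fat diet. All 4 samples are hypothalamic total RNA from male Wistar rats aged 4 months, hybridized to Illumina bead arrays. The groups are FR30 offspring (prenatally undernourished) on the high-fat (HF) diet, FR30 offspring on the standard diet, control offspring on the HF diet, and control offspring on the standard diet. Each group has 1 sample, and the labels do not say whether it is 1 animal or a pool, how long the diet was fed or what either diet held. In a whole hypothalamus, fewer cells of a type and less RNA per cell cannot be told apart.

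Sodium channels open on depolarization and carry the upstroke of the action potential. A large alpha subunit forms the pore, and single-pass beta subunits bind to it, alter its gating and act as adhesion molecules. Voltage-gated calcium channels turn that depolarization into calcium entry, which drives transmitter and hormone release and activity-dependent transcription. Their alpha1 subunit forms the pore, while the intracellular beta and the extracellular alpha2delta subunits bring it to the membrane. The gamma family holds the muscle channel's gamma subunit and the TARPs, which in neurons traffic and modulate AMPA glutamate receptors. HCN channels open on hyperpolarization, are gated by cyclic nucleotides and carry the pacemaker current. In hypothalamic neurons these families shape the firing patterns on which neuropeptide release depends.

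The promoters of 4 members are printed because these genes carry the results below. Scn2a was lower in FR30 rats on both diets, Scn4b had the highest positive difference of FR30 from control among members detected in both samples, Cacng3 had the largest diet difference in control rats, and Cacng8 was the member detected in all samples whose diet difference changed most with prenatal group. Each sequence is from RefSeq, build GRCr8, and runs 5′ to 3′ in the direction of the gene, 250 bases before to 50 after its start.
Scn2a, chr3:70710706-70711005, plus strand: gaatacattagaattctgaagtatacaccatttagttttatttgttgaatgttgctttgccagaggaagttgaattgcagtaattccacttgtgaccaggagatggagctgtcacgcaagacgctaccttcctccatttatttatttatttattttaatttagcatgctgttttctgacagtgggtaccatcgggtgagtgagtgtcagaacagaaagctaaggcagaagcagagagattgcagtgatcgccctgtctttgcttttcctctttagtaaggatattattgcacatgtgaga
Scn4b, chr8:54343623-54343922, plus strand: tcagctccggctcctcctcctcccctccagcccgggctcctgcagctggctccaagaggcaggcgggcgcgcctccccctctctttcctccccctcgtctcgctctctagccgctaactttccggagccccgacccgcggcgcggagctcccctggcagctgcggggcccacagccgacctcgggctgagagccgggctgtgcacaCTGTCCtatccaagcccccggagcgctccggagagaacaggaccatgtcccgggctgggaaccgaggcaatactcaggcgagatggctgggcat
Cacng3, chr1:186632312-186632611, plus strand: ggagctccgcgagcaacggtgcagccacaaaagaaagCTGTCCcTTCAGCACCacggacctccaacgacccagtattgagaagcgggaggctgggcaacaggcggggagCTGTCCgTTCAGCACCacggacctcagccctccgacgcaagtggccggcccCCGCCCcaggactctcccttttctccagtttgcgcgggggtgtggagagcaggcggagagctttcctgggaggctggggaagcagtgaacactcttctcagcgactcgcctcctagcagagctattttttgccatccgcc
Cacng8, chr1:74690954-74691253, minus strand: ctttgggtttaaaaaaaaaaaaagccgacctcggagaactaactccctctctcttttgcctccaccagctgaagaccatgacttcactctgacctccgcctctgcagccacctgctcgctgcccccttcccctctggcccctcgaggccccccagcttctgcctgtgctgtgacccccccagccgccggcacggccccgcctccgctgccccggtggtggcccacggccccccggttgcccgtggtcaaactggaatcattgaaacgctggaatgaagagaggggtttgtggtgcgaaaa
Capitals mark 3 motifs on either strand, which were chosen after the sequences were seen: TTCAGCACC, the left part of RE1 (the element bound by the repressor REST), GGACAG, the core of its right part, and GGGCGG, the GC box. None of the 3 overlaps another. The Cacng3 promoter holds TTCAGCACC 2 times, GGACAG 2 times and GGGCGG 1 time, and the Scn4b promoter holds GGACAG 1 time. In Cacng3 each GGACAG is on the strand opposite to TTCAGCACC and just upstream of a TTCAGCACC. These matches are therefore not placed as the left and right parts of a single RE1. TTCAGCACC was found in 0.356% of 33469 RefSeq rat promoters of this length, GGACAG in 21.7% and GGGCGG in 33.1%. Of the 25 members with a promoter in the table, 1, 5 and 13 hold these motifs. The GC content was 39.3% for Scn2a, 70.0% for Scn4b, 63.0% for Cacng3 and 61.7% for Cacng8, against a median of 63.7% over the 25 member promoters and 51.7% over all. These matches describe the letters in this window and were not related to the signals.

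Of the 39 members, 22 were detected in all 4 samples (detection p under 0.01, against the array's negative control probes), 6 in 1 to 3 samples and 11 in none. All 4 calcium beta subunits were detected in every sample, as were both L-type pores on the array (Cacna1c and Cacna1d). Of 9 sodium alpha subunits, 3 were detected throughout (Scn1a, Scn2a and Scn7a), Scn8a and Scn11a were detected in some samples, and Scn4a of skeletal muscle and Scn9a and Scn10a, best known from sensory neurons, in none. Of 8 gamma subunits and TARPs, Cacng2, Cacng3 and Cacng8 were detected throughout, while Cacng1 of skeletal muscle, Cacng4, Cacng5, Cacng6 and Cacng7 were detected in no sample. Cacna2d2 and Hcn4 were also undetected throughout, while Hcn2, Hcn3 and 2 of 3 alpha2delta subunits (Cacna2d1 and Cacna2d3) could be compared in every sample. Cacna1a, the pore of the P/Q-type channel of many presynaptic terminals, was undetected in all samples, with signals of 163.1 in FR30 HF, 156.9 in FR30 standard, 164.6 in control HF and 163.1 in control standard. A probe that is not above background gives no bound on how much of its gene's protein is present, and a single probe need not reach every transcript. The name rule covers 44 genes in RefSeq, and Cacna1f, Cacna1i, Cacna1s, Cacna2d4 and Scn3a have no member probe here. The gene called Scn2a here stands in the file under its older symbol, Scn2a1.

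The 4 arrays detected between 10579 and 11122 of 22523 probes. Of 14 hypothalamic marker genes, 13 were detected in all 4 samples and Sim1 in none, and 5 of the 6 skeletal muscle markers were detected in no sample. The summed signal of 10 neuronal markers lay between 77750 and 78940 in the 4 samples, that of 5 microglial markers between 4123 and 4445 and that of 7 telencephalic markers between 4133 and 4635. Other tissues varied more: in the order FR30 HF, FR30 standard, control HF and control standard, 5 choroid plexus markers summed to 2115, 1027, 989.2 and 1320, 6 anterior pituitary markers to 9548, 7557, 6976 and 6768, and 4 endothelial and blood markers to 12550, 8399, 11340 and 7267. The brightest endothelial and blood marker was the globin gene Hbb (9337, 5340, 8350 and 4559), while the endothelial Cldn5 had 2572, 2672, 2601 and 2357. Among the choroid plexus markers Ttr varied most (1251, 208.6, 182.9 and 522.6) and was not detected in every sample. The brightest pituitary markers were Tshb (5329, 4429, 3987 and 3456) and Pomc (3497, 2318, 2368 and 2029), which is also a hypothalamic marker. Prl (240.5, 313.2, 159.4 and 759.2) and Lhb (170.7, 191.8, 161.3 and 213.3) were instead highest in control standard, and neither was detected in every sample. Kl and Folr1 of the choroid plexus, Cga and Pou1f1 of the pituitary and Flt1 of the endothelium were detected in no sample, and the part of these tissues in the differences below was not tested. Signals below are the authors' normalized intensities in arbitrary units, and the error is the SD deposited beside each signal. What that SD was taken over is not stated, so it is read here as a measure of spread within a sample and not as the spread between animals. For detected members its median ran from 3.24% to 4.06% of the signal. Differences are log2 differences between background-corrected, quantile-normalized values made from the non-normalized intensities, each gene beside all genes detected in the same samples.

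Over the 22 members detected in all samples, the gap between the highest and the lowest sample had a median of 0.20 on the log2 scale, against 0.16 over 10097 genes. It was smallest for Cacna1d (0.02) and largest for Cacng8 (0.56). Among members detected in both samples of a pair, no difference reached 1.5-fold, a size used in place of a test because each group has 1 sample. The count was 0 of 22 members for HF against standard diet in FR30 rats (0.324% of all genes), 0 of 24 for HF against standard diet in control rats (0.587%), 0 of 23 for FR30 against control on the HF diet (0.802%) and 0 of 23 for FR30 against control on the standard diet (0.776%). For the difference between the diet differences of FR30 and control rats, 1 of 22 members, Cacng8, was past 1.5-fold (1.24%). At the smaller size of 0.32 on the log2 scale the counts were 1 of 22 (2.46% of all genes), 2 of 24 (4.62%), 3 of 23 (5.63%) and 0 of 23 (5.28%) in the same order, and 3 of 22 for the difference of diet differences (7.48%). The shares of members past these sizes therefore rest on at most 3 genes each.

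**Figure D1:**
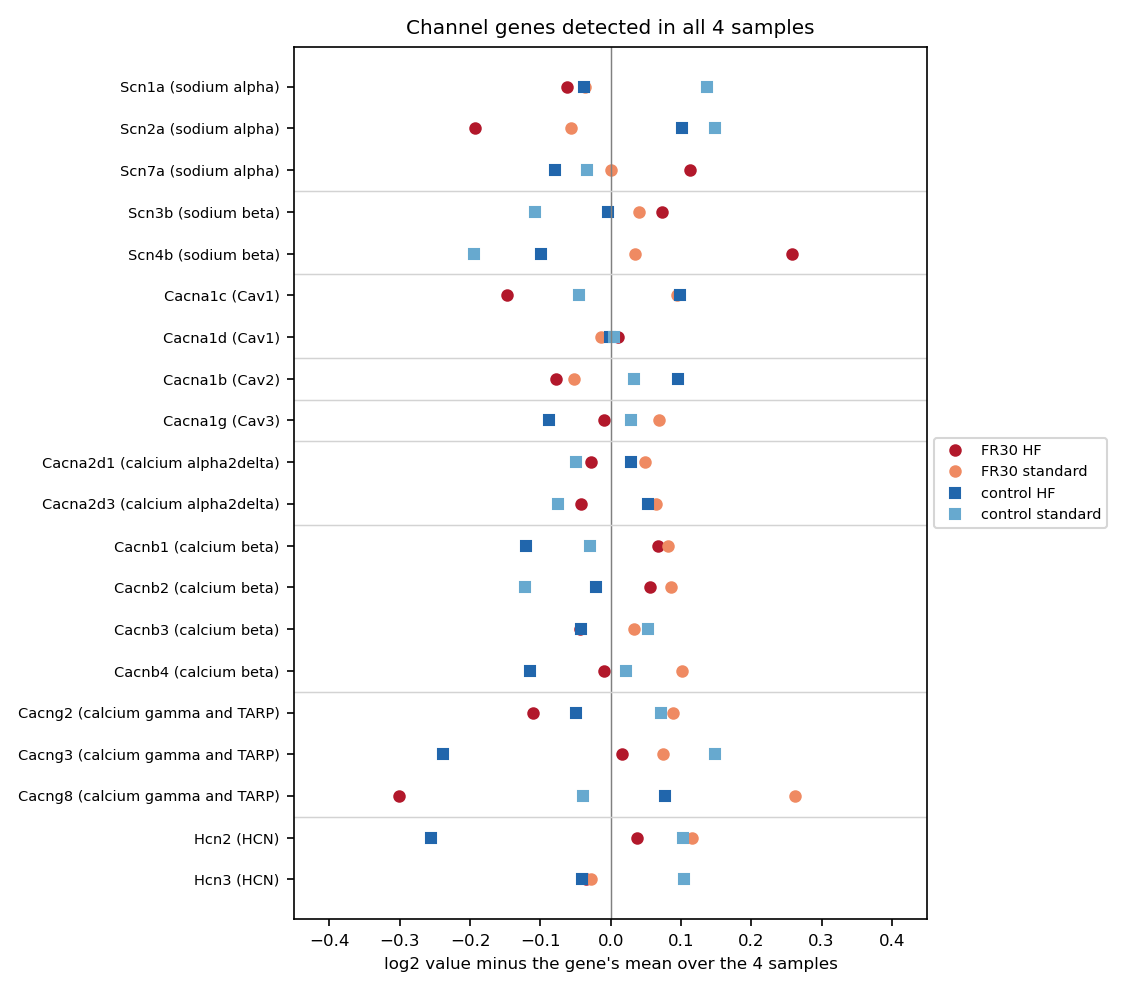
Log2 value of each of 20 detected members minus that gene's own mean over the 4 samples (x axis), by gene and subfamily (y axis). Circles are FR30 rats and squares control rats, and the darker shade is the HF diet. The 4 Cacna1d points spread over 0.02 and the Cacng8 points spread over 0.56.

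Among the sodium channel alpha subunits, Scn2a, a pore of axon initial segments and unmyelinated fibres, was lower in FR30 rats on both diets. Its signal was 2103 ± 85.4 in FR30 HF and 2276 ± 15.8 in FR30 standard, against 2556 ± 10.6 in control HF and 2645 ± 92.3 in control standard (deposited SD, as throughout). Both FR30 samples lay below both control samples. The log2 difference of FR30 from control was -0.29 on the HF diet and -0.20 on the standard diet. Scn2a was the 1 of 22 members whose FR30 and control signals lay more than 2 deposited SD apart on each side, and the same way, on both diets (3.02% of all genes). Scn1a, the pore enriched in fast-spiking interneurons, had a signal of 3844 ± 184 in FR30 HF, 3899 ± 136 in FR30 standard, 3924 ± 215 in control HF and 4462 ± 154 in control standard. Here the control standard sample was the high one and the other 3 lay close together, so the log2 difference of FR30 from control was -0.02 on the HF diet and -0.17 on the standard diet. Scn7a, which encodes a sodium-sensing channel of glia and circumventricular organs, had a signal of 476.9 ± 6.95 in FR30 HF and 453.1 ± 24.6 in FR30 standard, against 434.8 ± 16.9 in control HF and 444.4 ± 29.2 in control standard. It was higher in FR30 HF than in control HF by 0.19 and differed by 0.03 on the standard diet. The 3 detected alpha genes thus differed between FR30 and control in different ways. Scn8a, the pore of nodes and axon initial segments, was detected in FR30 standard and control HF only, so it is given as a bound on the background-corrected scale, which sets the detected sample against the higher of the undetected probe's own value and the lowest signal detected in that other sample: at least 1.09-fold higher in FR30 than in control on the standard diet and at least 1.03-fold lower on the HF diet. Such a bound holds on that scale alone; the authors' signals gave 1.07-fold and 1.03-fold for the same pairs.

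Among the sodium channel beta subunits, Scn4b and Scn3b were higher in FR30 than in control rats on both diets. Scn4b, the beta subunit linked to resurgent sodium current, had a signal of 357.3 ± 12.3 in FR30 HF and 327.3 ± 30.8 in FR30 standard, against 308.2 ± 10.5 in control HF and 296.9 ± 9.74 in control standard. Both FR30 samples were above both control samples, although the deposited SD of FR30 standard reaches the control signals. The log2 difference of FR30 from control was 0.36 on the HF diet and 0.23 on the standard diet, and 0.21 and 0.14 on the log2 scale of the authors' normalized signals. Scn3b, a brain beta subunit, had a signal of 5229 ± 76.9 in FR30 HF and 5140 ± 55.3 in FR30 standard, against 4941 ± 226 in control HF and 4558 ± 147 in control standard. Its 2 FR30 samples were again the highest, by 0.08 on the HF diet and 0.15 on the standard diet. Scn2b, the neighbour of Scn4b in the genome with no protein-coding gene between them, was not detected in FR30 HF. Its signal was 171.8 ± 10.29 in FR30 HF, 194.2 ± 9.119 in FR30 standard, 188.9 ± 4.379 in control HF and 188.0 ± 6.449 in control standard. Markers of other cell types also differed between FR30 and control on the HF diet. Thalamic markers were higher in FR30 in 9 of 12 (median 0.13, summed signal 21130 in FR30 HF and 20090 in control HF) and neuronal markers in 8 of 10 (median 0.06). Oligodendrocyte markers were higher in 7 of 9 (median 0.15, summed signal 51510 in FR30 HF and 50000 in control HF, range over all samples 49440 to 51510), and midbrain dopamine neuron markers in 3 of 4 detected (median 0.47, summed signal 4572 and 2784), with Ddc, Pitx3, Lmx1b and Foxa2 detected in no sample. Most of the gap in the dopamine neuron sum came from Slc6a3 (1642 in FR30 HF and 357.5 in control HF), while Nr4a2 was lower by -0.06. On the standard diet the medians were -0.006 for thalamic, -0.02 for neuronal, 0.05 for oligodendrocyte and 0.16 for dopamine neuron markers, and their part in the sodium channel differences was not tested.

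**Figure D2:**
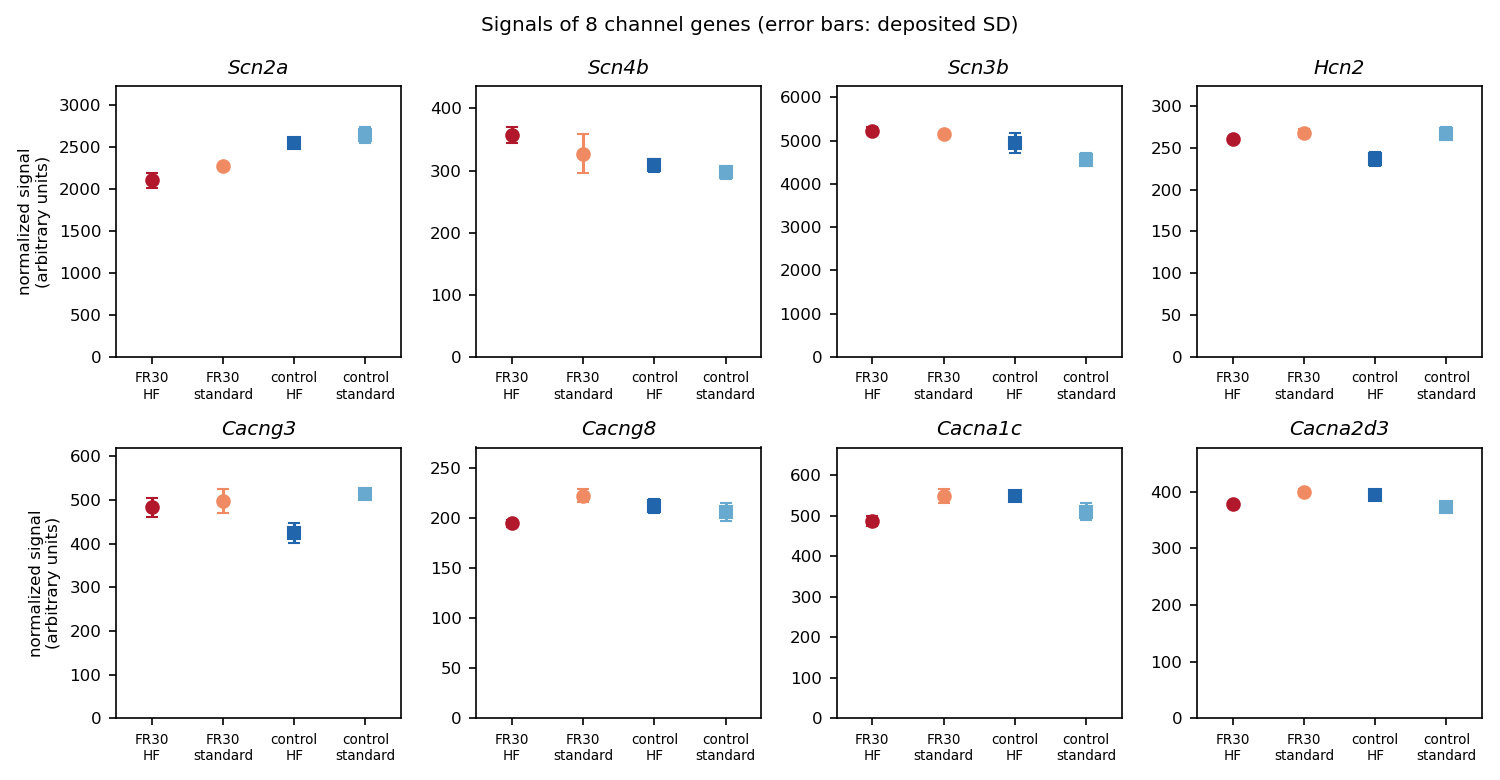
Normalized signal (y axis, arbitrary units, from 0) of 8 members in the 4 samples (x axis), with bars for the deposited SD. Scn2a was lower and Scn4b and Scn3b higher in both FR30 samples, Cacng3 and Hcn2 were lowest in control HF, and Cacng8 was lowest in FR30 HF and highest in FR30 standard.

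Among the HCN subunits, control HF was the low sample for Hcn2 and control standard the high one for Hcn3. Hcn2, a slower subunit with a strong response to cyclic AMP, had a signal of 260.4 ± 1.17 in FR30 HF and 267.5 ± 4.84 in FR30 standard, against 236.9 ± 8.4 in control HF and 267.0 ± 7.5 in control standard. Hcn2 was higher in FR30 than in control on the HF diet by 0.29 (0.14 on the authors' signals), while the difference was 0.01 on the standard diet. Hcn3 had signals of 219.6 ± 12.8 in FR30 HF, 219.8 ± 0.541 in FR30 standard, 219.3 ± 9.42 in control HF and 228.9 ± 13.4 in control standard, with the first 3 within 1 unit of each other. The HCN partner Pex5l (TRIP8b), which controls the surface traffic of these channels, was lower in control HF than in control standard by a log2 difference of -0.24 and higher in FR30 HF than in FR30 standard by 0.06 (-0.14 and 0.03 on the authors' signals). Its signal was 289.7 in FR30 HF, 283.6 in FR30 standard, 284.9 in control HF and 314.2 in control standard. Control standard was thus the high sample, and FR30 differed from control by -0.26 on the standard diet and 0.04 on the HF diet.

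Among the pore subunits of calcium channels, Cacna1c and Cacna1d, the L-type pores that couple calcium entry to transcription and pacemaking, behaved differently. Cacna1c had a signal of 486.5 ± 12.1 in FR30 HF and 548.4 ± 17.8 in FR30 standard, against 548.5 ± 12.3 in control HF and 509.9 ± 20.6 in control standard. It was lower on the HF diet in FR30 rats (log2 difference -0.24, more than 2 deposited SD apart on each side) and higher on the HF diet in control rats (0.14, not so far apart), a difference of -0.39 between the diet differences. Cacna1d had signals of 315.7 ± 9.97 in FR30 HF, 313.6 ± 9.9 in FR30 standard, 315.2 ± 12.3 in control HF and 314.7 ± 12.9 in control standard, and its largest pairwise log2 difference was 0.02, that of HF from standard diet in FR30 rats. Cacna1b, the pore of the N-type channel of presynaptic terminals, had a signal of 310.5 ± 18 in FR30 HF and 313.9 ± 6.07 in FR30 standard, against 333.1 ± 11.2 in control HF and 325.0 ± 5.07 in control standard. It was lower in FR30 on both diets, by log2 differences of -0.17 on the HF diet (-0.10 on the authors' signals) and -0.09 on the standard diet, within 2 deposited SD. Cacna1g, a low-threshold T-type pore, had a signal of 1660 ± 95 in FR30 HF and 1743 ± 50 in FR30 standard, against 1574 ± 16.1 in control HF and 1701 ± 47.1 in control standard. It was lower on the HF diet in both prenatal groups, by -0.08 in FR30 rats and -0.12 in control rats, and only in the control pair were the signals more than 2 deposited SD apart. Cacna1h, another T-type pore, was detected in FR30 standard (214.8 ± 7.927) and control HF (197.2 ± 10.87) and not in FR30 HF (187.7 ± 15.98) or control standard (180.9 ± 12.12). On the background-corrected scale it was at least 1.54-fold higher in FR30 than in control on the standard diet and at least 1.496-fold lower in FR30 HF than in FR30 standard, while HF was at least 1.17-fold higher than standard diet in control rats. On the authors' signals these differences were 1.19-fold, 1.14-fold and 1.09-fold, all in the same directions and below 1.5-fold. In none of these pairs did the Cacna1h signals lie more than 2 deposited SD apart on each side. Cacna1e, the R-type pore, was detected in both control samples and in neither FR30 sample, with bounds of at least 1.03-fold lower in FR30 on the HF diet and at least 1.065-fold lower on the standard diet on the background-corrected scale, and 1.07-fold and 1.04-fold lower on the authors' signals.

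The alpha2delta subunits, which help to set how many calcium channels reach the membrane, had opposite diet differences in the prenatal groups. Both detected genes were lower on the HF diet in FR30 rats and higher on the HF diet in control rats. Cacna2d3 had a signal of 378.3 ± 3.23 in FR30 HF and 399.2 ± 5.89 in FR30 standard, against 394.7 ± 5.38 in control HF and 373.3 ± 2.86 in control standard. The diet difference was -0.11 in FR30 rats and 0.13 in control rats (0.08 on the authors' signals), each more than 2 deposited SD apart. It was the 1 of 22 members with such opposite differences (0.485% of all genes). Cacna2d1 had a signal of 5604 ± 146 in FR30 HF and 5870 ± 224 in FR30 standard, against 5855 ± 199 in control HF and 5530 ± 244 in control standard, with diet differences of -0.08 and 0.08 that lay within the deposited SD. Astrocyte markers had the same directions, with 4 of 5 lower on the HF diet in FR30 rats (median -0.09) and 4 of 5 higher in control rats (median 0.06, but 2 of 5 higher and a median of -0.03 with median scaling). Their summed signal was 53770 in FR30 HF and 55890 in FR30 standard, against 54380 in control HF and 53520 in control standard, and their part in the alpha2delta values was not tested.

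The intracellular beta subunits promote the pore's surface expression and tune its gating. In FR30 rats 4 of 4 were lower on the HF diet (median -0.05, and 51.0% of all genes were lower). In control rats 3 of 4 were lower (median -0.09, and 45.8% of all genes were lower). FR30 rats had higher values in 3 of 4 on each diet (4 of 4 on the HF diet with median scaling), with medians of 0.09 on the HF diet and 0.10 on the standard diet. Of all genes, 51.4% were higher in FR30 on the HF diet and 56.2% on the standard diet. Cacnb2 had a signal of 493.8 ± 18.3 in FR30 HF and 501.6 ± 7.19 in FR30 standard, against 475.8 ± 16.4 in control HF and 451.7 ± 13.7 in control standard, and was more than 2 deposited SD apart between FR30 and control on the standard diet (0.21). Both FR30 samples of Cacnb2 lay above both control samples. The same order held for Cacnb1, within 2 deposited SD on each diet, with 688.9 ± 34.4 in FR30 HF and 705.9 ± 50.2 in FR30 standard, against 621.6 ± 7.38 in control HF and 656.0 ± 56.8 in control standard. Cacnb3 was lower on the HF diet in both prenatal groups, with 2457 ± 11.6 in FR30 HF and 2619 ± 142 in FR30 standard, and 2484 ± 146 in control HF and 2655 ± 40.3 in control standard. Cacnb4, the subunit mutated in the lethargic mouse, also was lower on the HF diet in both prenatal groups, by -0.11 in FR30 rats and -0.14 in control rats. By diet, no beta subunit had signals more than 2 deposited SD apart on each side.

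Among the TARPs, Cacng8, the TARP of hippocampal AMPA receptors, had a signal of 194.7 ± 3.89 in FR30 HF and 222.6 ± 6.76 in FR30 standard, against 211.9 ± 7.03 in control HF and 206.0 ± 8.92 in control standard. FR30 HF was the lowest and FR30 standard the highest, and the control samples lay between them. The diet difference was -0.56 in FR30 rats and 0.12 in control rats, a difference of -0.68 between them. On the authors' signals the diet differences were -0.19 and 0.04 and the difference between them -0.23, below 1.5-fold. The Cacng8 signals lie near the median of all probes on these arrays, which is between 181.0 and 181.2. Cacng3 differed in another sample: its signal was 483.0 ± 21.8 in FR30 HF and 497.4 ± 27.7 in FR30 standard, against 424.7 ± 22.6 in control HF and 513.6 ± 12 in control standard. Control HF was the low sample, and the diet difference was -0.06 in FR30 rats and -0.39 in control rats. Cacng2 (stargazin), the TARP whose loss causes the stargazer phenotype in mice, was lower on the HF diet in both prenatal groups. Its signal was 1090 ± 49.4 in FR30 HF and 1233 ± 6.14 in FR30 standard, and 1140 ± 57.1 in control HF and 1227 ± 80 in control standard, with diet differences of -0.20 and -0.12.

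Set out by diet, 18 of 22 members were lower on the HF diet in FR30 rats (51.0% of all genes were lower, and 17 of 22 members with median scaling), among them 12 of 13 calcium channel members. The median difference was -0.07, against -0.002 over all genes. In control rats 14 of 24 members were lower on the HF diet (45.8% of all genes), with a median of -0.05, against 0.01 over all genes. With the authors' signals or median scaling this count was 13 of 24, and when members detected at p under 0.05 were taken the median was 0.02. The diet difference had the same direction in both prenatal groups for 13 of 22 members (53.3% of all genes). Signals lay more than 2 deposited SD apart for 4 of 22 members in FR30 rats (6.28% of all genes), Cacna1c, Cacna2d3, Cacng2 and Cacng8, all lower on the HF diet. In control rats this was so for 3 of 24 members (11%), Cacna2d3 higher and Cacna1g and Cacng3 lower. Hcn2 was also lower in control HF than in control standard, by -0.36 (-0.17 on the authors' signals). Thalamic marker genes also differed by diet. In FR30 rats 10 of 12 were lower on the HF diet (median -0.16), and in control rats 11 of 13 were lower (median -0.39). Their summed signal was 21130 in FR30 HF and 23370 in FR30 standard, against 20090 in control HF and 22490 in control standard, and all but 1 of the 13 were detected in all samples. Most of this sum came from Slc17a6, with 12060, 13310, 11990 and 12150 in the same order. The diet difference of Slc17a6 was -0.15 in FR30 rats and 0.0025 in control rats. Of neuronal markers 5 of 10 were lower in each prenatal group, with medians of -0.003 in FR30 rats and -0.02 in control rats. The part of thalamic RNA in the values of Cacng3, Hcn2, Cacna1g and the other members was not tested.

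Set out by prenatal group, 13 of 23 members were higher in FR30 than in control on the HF diet (51.4% of all genes), with a median of 0.01, against 0.004 over all genes. On the standard diet 15 of 23 were higher (56.2% of all genes, and 14 of 23 members with median scaling), with a median of 0.04, against 0.02. The direction was the same on both diets for 14 of 22 members (60.5% of all genes). Signals lay more than 2 deposited SD apart for 4 of 23 members on the HF diet (12.4% of all genes), with Hcn2 and Scn4b higher and Cacna1c and Scn2a lower in FR30. On the standard diet this was so for 4 of 23 members (11.6%), with Cacna2d3, Cacnb2 and Scn3b higher and Scn2a lower in FR30.

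**Figure D3:**
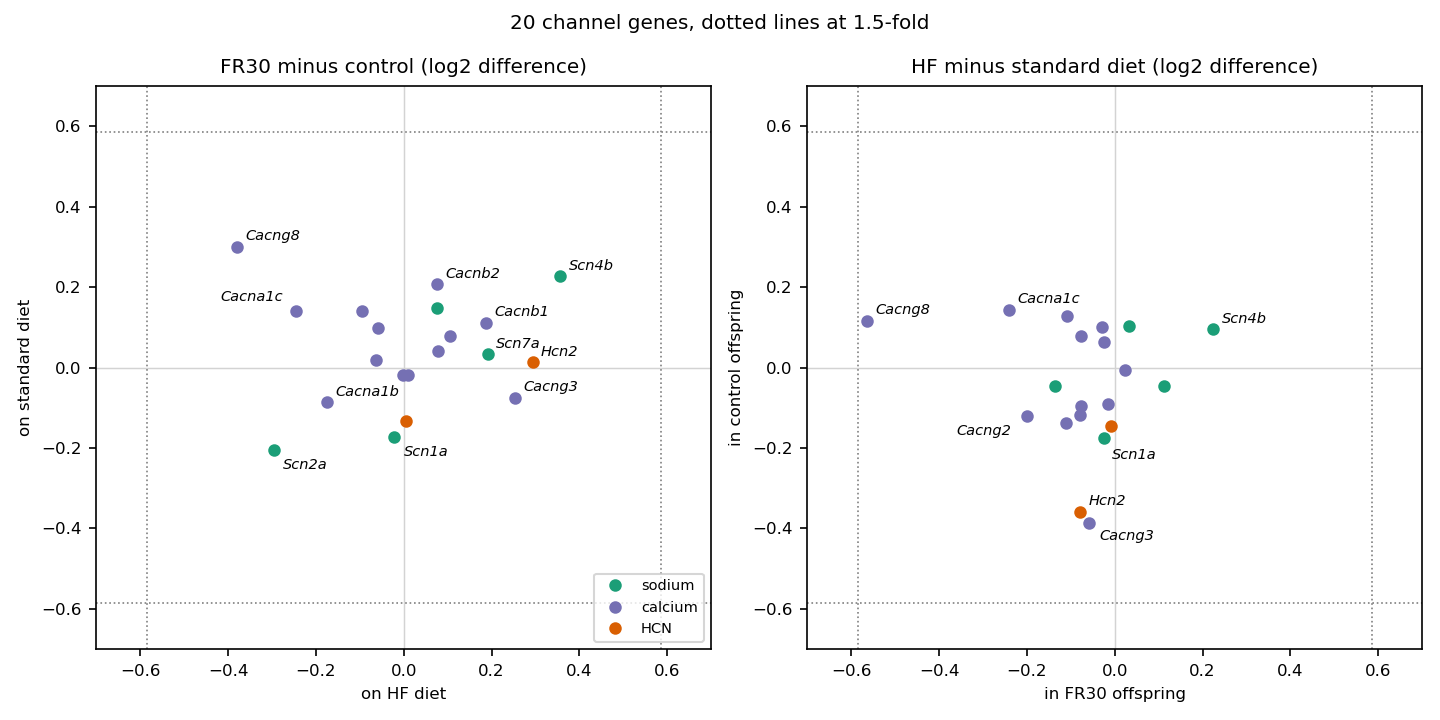
Log2 differences of 20 detected members, FR30 minus control on the HF diet (x axis) and on the standard diet (y axis) in the left panel, and HF minus standard diet in FR30 rats (x axis) and in control rats (y axis) in the right panel. Colours give the family and dotted lines 1.5-fold; Scn2a lies low and Scn4b high on both axes of the left panel, and Cacng8 lies farthest left in the right panel at -0.56.

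The only test the design allows is a fit across all genes with prenatal group and diet as additive terms, which leaves 1 residual degree of freedom and takes the interaction as error. In limma, with Benjamini-Hochberg adjustment over 10097 genes, it called 0 of 22 members for prenatal group (0.0099% of all genes, 1 gene) and 0 of 22 for diet (0.0%, 0 genes). At an unadjusted p under 0.05, 3 of 22 members passed for prenatal group (12.7% of all genes) and 1 of 22 for diet (7.12%). Scn4b was 0.29 higher in FR30 rats over both diets (SE 0.065, limma adjusted p = 0.229). Scn2a differed by -0.25 (SE 0.0614, limma adjusted p = 0.244). Cacng2 differed by -0.16 between HF and standard diet (SE 0.0607, limma adjusted p = 0.697). When limma's prior variance was allowed to follow signal level and to be robust to outlying genes, Scn2a was called for prenatal group (adjusted p = 0.0202), among 2.75% of all genes, and 0 members were called for diet (0.099% of all genes). The adjusted p of Scn2a ran from 0.0202 to 0.293 over the settings tried.

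Genes that act with these channels were described in the same way. Of 47 on the array, which are partners, anchors, inhibitors, calcium stores and pumps, 36 were detected in all 4 samples. In pairwise comparisons whose samples both detected them, 0 were past 1.5-fold, as were 0.324% to 0.802% of all genes. The additive fit called 0 of them for prenatal group (0.0099% of all genes) and 0 for diet (0.0%). Their median difference for HF against standard diet was -0.03 in FR30 rats and -0.04 in control rats (-0.002 and 0.01 over all genes). For FR30 against control their median was -0.01 on the HF diet and -0.02 on the standard diet (0.004 and 0.02 over all genes). Fgf12, an intracellular partner of sodium channels that modulates their inactivation, had a signal of 1145 ± 8.771 in FR30 HF and 1173 ± 74.16 in FR30 standard, against 1048 ± 27.28 in control HF and 1367 ± 60.2 in control standard, a diet difference of -0.06 in FR30 rats and -0.42 in control rats. For Fgf12 control HF was the lowest sample and control standard the highest. Its log2 difference of FR30 from control was 0.12 on the HF diet and -0.24 on the standard diet. Rims1, a scaffold that holds calcium channels at release sites, was lower on the HF diet by -0.25 in FR30 rats and -0.49 in control rats (-0.37 in the additive fit, limma adjusted p = 0.596). Of the genes of calcium extrusion, 4 of 4 detected were lower on the HF diet in FR30 rats and 3 of 4 in control rats, where the sodium-calcium exchanger Slc8a3 was higher by 0.14 (51.0% and 45.8% of all genes were lower). Atp2b1, a plasma membrane calcium pump, had a signal of 2701 ± 92.13 in FR30 HF and 3302 ± 49.99 in FR30 standard, and 2998 ± 45.78 in control HF and 3690 ± 155 in control standard (-0.28 in the additive fit, limma adjusted p = 0.596). Orai2, a pore of store-operated calcium entry, was lower on the HF diet by -0.27 in FR30 rats and -0.36 in control rats (-0.13 and -0.18 on the authors' signals, limma adjusted p = 0.596). Nalf1, an auxiliary subunit of the NALCN sodium leak channel, was lower in FR30 than in control by -0.23 on the HF diet and -0.37 on the standard diet (-0.30 in the additive fit, limma adjusted p = 0.229).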

How the data were processed

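The 4 samples, 1 per group, were grouped by their titles. Per the labels' protocols, Trizol-extracted RNA was biotin-labelled and run on Illumina bead arrays. Per the submitters' processing notes, GenomeStudio (version not stated) was used. The deposited non-normalized table gives each probe's mean bead intensity with a detection p-value. The authors' normalized table gives an intensity, a detection p-value and an SD; neither its normalization method nor what the SD was taken over is stated. One more deposited table, which repeats the normalized intensities, was not used.

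The deposited non-normalized intensities were turned into log2 values by limma 3.58.1 under R 4.3.3 (neqc, offset 16, background from the detection p-values, quantile normalization). Symbols were matched to RefSeq: 10291 probes held a current symbol, 4961 an older one, 1642 a gene number, 5495 kept the file's symbol and 134 had none. Each gene took its probe with the highest mean. Pairwise differences were described by size (1.5-fold, or signals more than 2 deposited SD apart on each side). Prenatal group and diet were tested with limma's lmFit and eBayes over the 10097 genes that every sample detected, adjusted by Benjamini-Hochberg at 0.05; the procedure was tested on simulated data. Signals in all samples are given for members past 1.5-fold, the 3 furthest in each direction in each comparison, members called by the fit, and in each subfamily the detected member with the highest mean log2 value; further members and associated genes were named after their values were seen. The members, marker lists and associated genes were chosen with earlier results of these data known. Alternatives were the authors' signals, an offset of 50, median scaling, other detection filters, every probe, a smaller size threshold and trended robust eBayes. Precision is limited by having 1 sample per group. Results on some items withheld for evaluation are not reported here.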

Additional observations from a re-analysis of the deposited data

Results flagged for a closer look

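Cacna2d3 and Cacng8 had diet differences of opposite direction in FR30 and control rats. For Cacna2d3 the log2 difference of HF from standard diet was -0.11 in FR30 rats and 0.13 in control rats, a difference of -0.24. For Cacng8 it was -0.56 in FR30 rats and 0.12 in control rats, a difference of -0.68. The Cacng8 signals of control rats, 211.9 ± 7.03 on the HF diet and 206.0 ± 8.92 on the standard diet, lay within 2 deposited SD. On the authors' signals the Cacng8 diet differences were -0.19 in FR30 rats and 0.04 in control rats. With 1 sample per group, the difference was tested for neither gene.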

How the results depend on the processing

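No paired analysis was possible because each group has 1 sample, and no sample could be left out. The number of members past 1.5-fold for HF against standard diet in FR30 rats was 0, and 1 at a detection p under 0.05, 1 with no detection filter and 1 at the smaller size of 0.32 on the log2 scale. In control rats it was 0, and 2 at the smaller size of 0.32. For FR30 against control it was 0 on the HF diet and 3 at the smaller size of 0.32, and 0 on the standard diet, and 1 at a detection p under 0.05 and 1 with no filter. For the difference of diet differences it was 1, and 0 with the authors' signals, 0 with an offset of 50, 2 at a detection p under 0.05, 2 with no filter and 3 at the smaller size of 0.32. The additive fit called 0 members for prenatal group, and 1 with trended and robust eBayes. Looser filters and sizes admit more members by construction; otherwise the cause was not tested. Median differences of the members moved by less than 0.0682 on the log2 scale under each alternative, although medians near 0 changed sign: for HF against standard diet in control rats (0.02 at a detection p under 0.05), FR30 against control on the HF diet (-0.001 with no filter) and the difference of diet differences (-0.006 with the authors' signals and -0.01 with median scaling). Of 85 differences of the 17 members chosen by rule, 23 moved by at least that much with the authors' signals, 6 with an offset of 50 and 1 with median scaling; 4 changed sign with median scaling, all near 0: Scn1a for FR30 against control on the HF diet (0.03, reported value -0.02) and for HF against standard diet in FR30 rats (0.002, reported value -0.02), Cacnb3 for FR30 against control on the HF diet (0.03, reported value -0.001) and Hcn2 for FR30 against control on the standard diet (-0.01, reported value 0.01). Signal over background limits the dim members, among them Cacng8 and Hcn2.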
